A study of Mus musculus with 4 samples.

Results

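The cytosolic ribosomal protein genes encode the proteins of the small (40S) and large (60S) ribosomal subunits. They were described here by cell class, by cycling state and by library in the mouse cerebellum. A gene was a member if its symbol was Rpl or Rps followed by a digit, or Rplp0, Rplp1, Rplp2 or Rpsa, was neither a numbered pseudogene nor an Rps6k kinase, and had at least 1000 unique molecular identifiers (UMIs, each a tagged RNA molecule) over the 4 libraries. Of 32285 genes in the feature list 86 matched by symbol and 83 passed the UMI minimum. The 3 that did not pass were paralogs: Rpl10l with 0 UMIs, Rpl3l with 150 and Rpl39l with 189. Rps19bp1 passed by its symbol, although it encodes a protein that binds Rps19 and is not a part of the ribosome, so it is named apart wherever it matters.

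Whole cerebella, with the meninges removed and the tissue dissociated with trypsin, were profiled cell by cell with a droplet method (10x Genomics). The groups were Eftud2 cKO at postnatal day 10 (P10 cKO), WT at the same age (P10 WT), Eftud2 cKO at postnatal day 14 (P14 cKO) and WT at that age (P14 WT), with 1 library each. Eftud2 encodes a GTPase of the core spliceosome, and the series title names Purkinje cells as the deficient cells. The Cre line, sex, strain and number of animals per library are not given in the sources used here. Purkinje cells were too few to describe, with 3 cells in P10 cKO, 5 in P10 WT, 2 in P14 cKO and 6 in P14 WT. Every cell class below is therefore one that the title does not name as deficient. With 1 library per group no difference between genotypes has a replicate check, and intervals given for such differences are 95% intervals for counting error only. Tests were made between cell classes of the same libraries, with the library as a block. The 4 libraries differ in age, genotype and counting version and are not replicates of 1 condition.

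Ribosomal protein messenger RNAs are among the most abundant in any cell, and the proteins are made in near equal amounts because every ribosome holds 1 copy of almost all of them. Most of these messages begin with a C at the transcription start, followed by a run of C and T. This 5′ terminal oligopyrimidine (TOP) tract lets mTOR signalling and the RNA-binding protein Larp1 control their translation together. In the postnatal cerebellum, granule cell progenitors divide in the outer layer under the control of Sonic hedgehog and the Myc family. They then leave the cycle, migrate inward and mature into the most numerous neurons of the brain.

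Promoter sequences 250 bases before to 50 after the start were matched by symbol for 63 of the 83 members (RefSeq, GRCm38.p6). Of these, 13 (20.6%) had a C at the annotated start followed by at least 4 C or T, against 673 of all 27025 promoters in the table (2.49%). A run of at least 8 C or T within 5 bases of the start occurred in 21 members (33.3%) and in 9.63% of all promoters, and the median longest run was 5 bases in members against 3 in all. The motif CTTCCG, searched on both strands, the core bound by Ets-family factors such as Gabpa, occurred in 43 members (68.3%) and in 17.2% of all promoters. TATAAA, also on both strands, occurred in 6 members (9.52%) and in 14.2% of all promoters. These are matches to letters at an annotated start and not measured sites.

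To show how the starts of named members differ, 60 bases before and 30 from the start are printed 5′ to 3′ for members named repeatedly below, with the longest C and T run at or near the start in capitals.
Rpl38 (chr11:114668520-114668609, plus strand): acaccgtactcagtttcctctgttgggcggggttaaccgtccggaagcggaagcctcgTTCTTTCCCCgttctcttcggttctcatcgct
Rps27 (chr3:90213619-90213708, minus strand): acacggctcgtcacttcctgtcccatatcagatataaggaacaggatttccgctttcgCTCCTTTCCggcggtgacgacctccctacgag
Rps27l (chr9:66946026-66946115, plus strand): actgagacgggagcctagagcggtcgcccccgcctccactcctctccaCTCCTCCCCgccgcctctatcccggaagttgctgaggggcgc
Rpl22l1 (chr3:28805448-28805537, plus strand): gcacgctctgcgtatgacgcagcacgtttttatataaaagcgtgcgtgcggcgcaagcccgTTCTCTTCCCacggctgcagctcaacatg
Rpl22 (chr4:152325666-152325755, plus strand): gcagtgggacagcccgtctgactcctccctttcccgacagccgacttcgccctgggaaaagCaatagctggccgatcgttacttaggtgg
Rpl12 (chr2:32961652-32961741, plus strand): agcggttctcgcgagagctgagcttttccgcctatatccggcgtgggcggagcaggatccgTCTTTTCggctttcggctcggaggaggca
Rps19bp1 (chr15:80264277-80264366, minus strand): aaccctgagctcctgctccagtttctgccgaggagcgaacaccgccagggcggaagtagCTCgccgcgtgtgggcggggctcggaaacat
Rpl38 and Rps27 had the full tract with a C at the start. In Rps27l the run lay before the annotated start base. In Rpl22l1, Rpl12 and Rpl22 the start base was a G and the run began at the next base, with a single C in Rpl22. Rps19bp1 had a run of 3 bases.

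The libraries held 6719 barcodes and 92315263 UMIs in P10 cKO, 16691 and 158017834 in P10 WT, 7281 and 91091692 in P14 cKO, and 15837 and 145731767 in P14 WT. After filtering, 6593, 14280, 6308 and 15395 cells were kept in that order, with medians of 11008, 8490, 12347 and 7838 UMIs per cell, and between 7 and 76 barcodes were shared by any pair of libraries. Eftud2 itself stood at 55.7 CPM (UMIs scaled to a common total per library or class) over all cells in P10 cKO against 52.2 CPM in P10 WT, and at 45.05 CPM in P14 cKO against 47.3 CPM in P14 WT, over cells of all classes.

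A pair of library properties bear on every genotype comparison below. The P10 WT matrix was written by Cell Ranger 5.0.0 and the other 3 by 7.0.1 or 7.1.0, per the file headers. Genes with long introns (over 100000 bases in total) held 27.3% of UMIs in P10 cKO against 7.38% in P10 WT, and 26.6% in P14 cKO against 24.9% in P14 WT. The members held 8.10% of UMIs in P10 cKO against 14.7% in P10 WT, and 7.15% in P14 cKO against 7.64% in P14 WT. At P10 the genotype and the counting version cannot be told apart. The second property concerns P14 WT. The 11 members with coding sequences of at most 300 bases, such as Rpl41, Rpl39, Rps29, Rps28 and Rpl38, made up 10.3% of member UMIs in P10 cKO, 11.5% in P10 WT, 9.80% in P14 cKO and 6.93% in P14 WT. The 23 members over 600 bases made up 29.9%, 28.8%, 29.3% and 33.2% in the same order. P14 WT thus stands apart in the balance of short and long members, and the main P14 share ratios are given with and without the members of at most 400 coding bases.

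Levels over all cells spanned more than 2 orders of magnitude. CPM counts tagged molecules and is not divided by transcript length, and many members have processed copies in the genome whose reads may be lost or shared in counting, so the order of members is approximate. Rpl13 was among the highest, at 1902 CPM in P10 cKO, 3401 CPM in P10 WT, 1660 CPM in P14 cKO and 2058 CPM in P14 WT. Rps24, Rps27a (a fusion of ubiquitin and the small subunit protein) and Rpsa (also known as the laminin receptor) were also high, with means over the 4 libraries of 2096, 1870 and 1749 CPM. The median member averaged 1181 CPM. At the low end were the paralogs Rpl22l1 (285 CPM), Rps27l (220 CPM), Rpl7l1 (69.9 CPM) and the retrogene Rps27rt (18.5 CPM), with Rps19bp1 at 42.1 CPM. Rps27rt is nearly identical to Rps27, so its UMIs are uncertain.

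Cells were assigned to 14 classes by marker genes, none of which is a member. In bulk sums a lower share can mean fewer molecules of members or more of everything else, and these cannot be told apart. Blood leukocytes had the largest member share of all classes in each library, with 16.7% of UMIs in P10 cKO, 22.0% in P10 WT, 15.8% in P14 cKO and 18.2% in P14 WT. Endothelial cells, cycling progenitors and microglia followed by mean rank, at 9.21% to 11.6% outside P10 WT and 15.8% to 17.1% in P10 WT. Fibroblasts, border macrophages and oligodendrocyte precursors formed the middle of the order, and their ranks crossed between libraries. Newborn granule neurons held rank 10 in all 4 libraries, with 6.31% in P10 cKO, 13.2% in P10 WT, 6.08% in P14 cKO and 6.02% in P14 WT. The lowest shares were in intermediate granule neurons (3.97% to 4.66% outside P10 WT), myelinating oligodendrocytes (3.98% to 4.07%), mature granule neurons (2.81% to 3.80%) and astroglia (3.10% to 3.30%), and these classes overlapped in rank. The plot of shares by class shows that P10 WT lay above the other 3 libraries in every class, while the order of classes was similar in all 4.

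**Figure D1:**
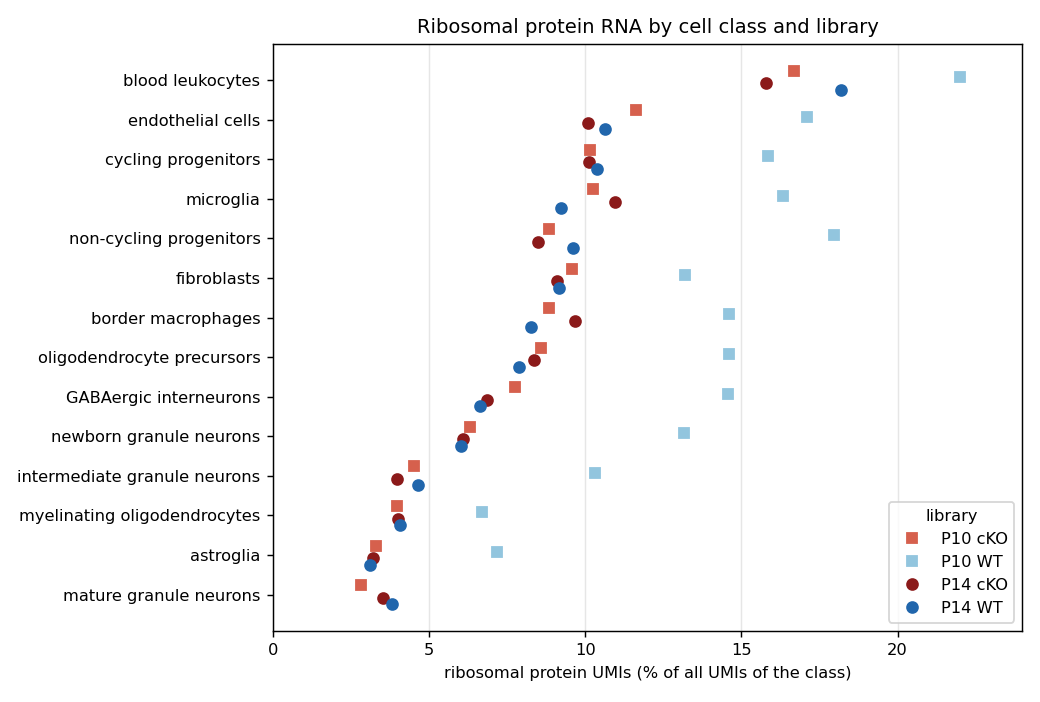
Share of ribosomal protein UMIs (% of all UMIs of a class, x axis) in 14 cell classes (y axis), 1 point per library, squares for P10 and circles for P14. Blood leukocytes were highest in all 4 libraries (15.8% to 22.0%), intermediate and mature granule neurons, myelinating oligodendrocytes and astroglia formed the low end, and P10 WT lay to the right in every class; mature granule neurons had 7 cells in P10 WT and are not drawn for it.

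Along the granule lineage the share stepped down with maturation. Non-cycling progenitors had 8.84% in P10 cKO, 17.95% in P10 WT, 8.48% in P14 cKO and 9.62% in P14 WT. On the log2 scale newborn neurons were lower than non-cycling progenitors by a mean of 0.52 (SD 0.10) in 4 of 4 libraries. Intermediate neurons were in turn lower than newborn neurons by 0.46 (SD 0.12) in 4 of 4 libraries, and mature neurons lower than newborn neurons by 0.87 (SD 0.26) in the 3 libraries with enough mature cells. In the oligodendrocyte lineage, by summed UMIs, myelinating cells were lower than precursors by 1.06 (SD 0.08) in 4 of 4 libraries, a 2.09-fold difference. The depth of myelinating cells was uneven, with medians of 49622 UMIs in P10 cKO, 5942 in P10 WT, 5236 in P14 cKO and 34117 in P14 WT, and their shares of summed UMIs were 3.98%, 6.68%, 3.98% and 4.07%. Their median share per cell was 4.45% in P10 cKO, 8.85% in P10 WT, 7.67% in P14 cKO and 4.27% in P14 WT, higher in the libraries with shallow cells. Precursors had 8.75%, 14.7%, 8.38% and 7.74% per cell in the same order, so in P14 cKO the gap between the classes was much smaller per cell than in summed UMIs. Border macrophages were lower than microglia by 0.18 (SD 0.03) in 4 of 4 libraries.

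For the first step of neuronal differentiation, newborn granule neurons against non-cycling progenitors, 81 of 83 members were lower and 0 higher at an adjusted p of 0.05 (edgeR quasi-likelihood test, Benjamini-Hochberg over 12071 genes, 4 libraries as blocks). Over all genes tested 13.9% were lower and 13.9% higher. The median log2 fold change was -0.47 over members and -0.01 over all genes. All 83 members were lower in newborn neurons in each of the 4 libraries taken singly. The 49 large-subunit and 33 small-subunit proteins moved by similar amounts, with medians of -0.45 and -0.49.

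The largest decrease was that of Rpl12, which sits at the base of the stalk where elongation factors bind. It had 440 CPM in newborn neurons and 735 CPM in non-cycling progenitors of P10 cKO, 881 and 1451 CPM in P10 WT, 425 and 766 CPM in P14 cKO, and 437 and 910 CPM in P14 WT. Newborn neurons were below non-cycling progenitors in each library, and the fitted log2 fold change was -0.80 (SE 0.06, adjusted p 2.0e-16). Rpl22l1, the paralog of Rpl22, came next at -0.74 (SE 0.07), with Rpl10a, Rpl3 (part of the peptidyl transferase centre) and Rps2 between -0.72 and -0.74. At the other end Rps19bp1 (-0.12, SE 0.11, adjusted p 0.49) and Rpl36al (-0.14, SE 0.06, adjusted p 0.077) did not pass the test. Rpl27, Rpl7a and Rpl7 had the smallest decreases that passed, from -0.25 to -0.30. Rpl5 and Rpl11, which together with 5S rRNA can bind Mdm2 and stabilise p53, fell by 0.39 and 0.37, less than the member median, while Rps19, mutated in Diamond-Blackfan anaemia in humans, fell by 0.66. Members with a C and T run of 8 or more at the start had a median of -0.49 (21 of 21 lower) and those with a shorter run -0.47 (40 of 42 lower), so the run as annotated did not separate them.

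Maturation continued the decrease. Between intermediate and newborn granule neurons 80 of 83 members were lower, against 9.40% of 13078 genes, with a member median of -0.48 and an overall median of -0.02 (edgeR, 4 libraries). Rps3, Rps28, Rps19 and Rps14 had the largest decreases, of 0.61 to 0.62. The 3 that did not pass were Rps19bp1 (0.03, SE 0.07, adjusted p 0.86), Rpl7l1 (-0.11, SE 0.07, adjusted p 0.29) and Rpl22l1 (-0.24, SE 0.10, adjusted p 0.13). When cells were restricted to 8000 to 16000 UMIs, a choice made after the data were seen that left 3 libraries, only 8 members passed, with a median of -0.31. Between mature and newborn neurons, in the 3 libraries other than P10 WT, 78 of 83 members were lower, against 12.3% of 13264 genes, with medians of -0.82 and -0.04. Rplp0 (the scaffold of the stalk), Rps3 and Rpl22 fell by 1.11 to 1.19. Rpl22l1 was the exception again. In P10 cKO it had 60.2 CPM in mature and 115 CPM in newborn neurons. The values were 192 and 140 CPM in P14 cKO, and 130 and 111 CPM in P14 WT. Its log2 fold change in the edgeR fit was 0.04 (SE 0.19, adjusted p 0.90). Its parent Rpl22 had 132 and 334 CPM, 170 and 336 CPM, and 141 and 311 CPM in the same comparisons and fell by 1.11 (SE 0.15, adjusted p 3.9e-06). By CPM Rpl22l1 was thus higher in mature neurons in both P14 libraries and lower in P10 cKO, whereas Rpl22 was lower in all 3. Mature neurons numbered 113 cells in P10 cKO, 388 in P14 cKO and 75 in P14 WT. No counting interval is given for these directions. Mature cells were shallower than newborn cells. Median UMIs, mature first, were 3849 and 9750 in P10 cKO, 10927.5 and 12290.5 in P14 cKO, and 6363 and 7310 in P14 WT. A value within the depth window is not given here for this comparison. Rpl3 also fell short of the test (-0.38, SE 0.16, adjusted p 0.093), as did Rpl7l1, Rps19bp1 and Rps27rt.

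Cycling made a smaller and less settled difference. Cycling progenitors (at least 10 of 20 S-G2-M genes detected) were compared with non-cycling ones (at most 3). Their member shares were 10.1% and 8.84% in P10 cKO, 15.8% and 17.95% in P10 WT, 10.1% and 8.48% in P14 cKO, and 10.4% and 9.62% in P14 WT. Cycling cells were thus higher in 3 libraries and lower in P10 WT. In the edgeR test 30 of 83 members were higher and 1 lower, against 26.9% and 24.6% of 11649 genes. The member median was 0.13 and the overall median 0.00. Singly, 78 of 83 members were higher in P10 cKO, 76 in P14 cKO and 63 in P14 WT, but 10 in P10 WT. Without P10 WT 47 members were higher, and without P10 cKO 16. Cycling cells were also deeper, with medians of 19668 and 10583 UMIs per cell in P10 cKO, 14646 and 7108 in P10 WT, 23965 and 13440 in P14 cKO, and 16158 and 8431 in P14 WT. When each cell was thinned to 3000 UMIs before gating, which left 3 libraries, 0 members were higher and 27 lower, against 11.5% of genes lower, with a member median of -0.17. Progenitors between the limits, with 4 to 9 S-G2-M genes detected, had a higher share than both: 11.99% in P10 cKO, 19.5% in P10 WT, 12.1% in P14 cKO and 12.4% in P14 WT.

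A few members had larger differences between cycling and non-cycling progenitors than the rest, in cells gated at full depth. With thinned gates no member was called higher, so none of the higher calls named here was kept. Rps27l, a paralog of Rps27 known as a p53 target, had 283 and 165 CPM in P10 cKO, 433 and 323 CPM in P10 WT, 321 and 170 CPM in P14 cKO, and 300 and 197 CPM in P14 WT, cycling first. It was higher in cycling cells in 4 of 4 libraries, at 0.71 (SE 0.08, adjusted p 2.4e-08). Rpl22l1 had 321 and 207 CPM, 515 and 405 CPM, 366 and 209 CPM, and 341 and 213 CPM in the same order of libraries and was also higher in 4 of 4, at 0.66 (SE 0.07, adjusted p 5.6e-08). The parents did not pass: Rps27 was at -0.10 (SE 0.07, adjusted p 0.25) and Rpl22 at 0.13 (SE 0.07, adjusted p 0.14). The acidic stalk protein Rplp1 (0.52), Rpsa (0.44) and Rpl41, the smallest member (0.40), were also higher. Rpl37 was the 1 member called lower, at -0.21 (SE 0.07, adjusted p 0.019). In oligodendrocyte precursors 0 members were higher and 13 lower in cycling cells, against 19.0% of 11529 genes lower, with a median of -0.10. There Rplp1 was lower, at -0.40 (SE 0.07, adjusted p 0.0014), opposite in sign to the progenitors, and Rps27l (-0.10) and Rpl22l1 (-0.07) did not pass. The difference between the cell types was not tested.

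**Figure D2:**
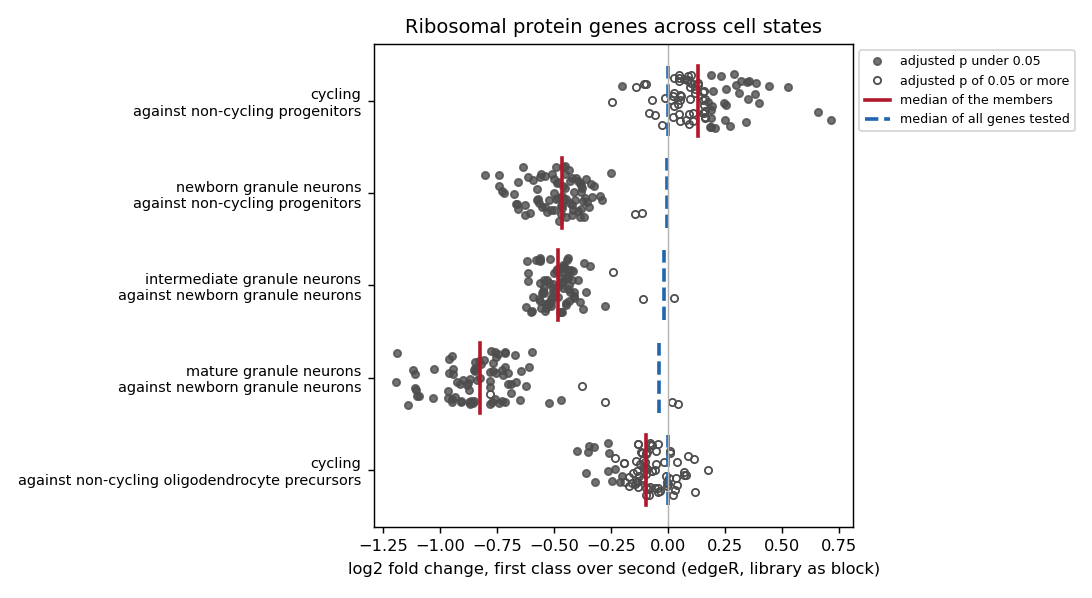
Log2 fold change of each ribosomal protein gene (x axis, first class over second, edgeR with library as block) in 5 comparisons (y axis); filled points had an adjusted p under 0.05, the red bar is the member median and the dashed blue line the median of all genes tested. Members shifted below 0 as a body in each comparison of granule neuron maturation (medians -0.47, -0.48 and -0.82). Intermediate and mature neurons were both compared with newborn neurons. In the comparisons of cycling state members lay on both sides of 0.

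Other parts of the translation machinery were counted from lists, chosen with earlier results of these data known. Newborn neurons were compared with non-cycling progenitors, and intermediate and mature neurons were both compared with newborn neurons. Among ribosomal proteins of other name, the small-subunit scaffold protein Rack1 fell by 0.44 in newborn, 0.51 in intermediate and 0.95 in mature neurons, and Fau, made as a fusion with a ubiquitin-like protein, by 0.40, 0.41 and 0.63. Neither passed in the cycling comparisons. Of 20 translation factors and other TOP messages, 15 were lower and 1 higher in newborn neurons, 17 and 0 in intermediate neurons, and 18 and 1 in mature neurons, with medians of -0.32, -0.33 and -0.68. Elongation factor Eef1a1 fell by 0.53 in intermediate and 0.93 in mature neurons, and the histamine-releasing factor Tpt1 by 0.54 and 1.04. Of the ribosome biogenesis genes, in cycling progenitors, 22 of 30 were higher and 0 lower, with a median of 0.45, led by the box C/D and H/ACA small nucleolar particle proteins Nop58 (1.44, SE 0.09), Nop56 (1.34, SE 0.10), Gar1 (1.27, SE 0.10) and Dkc1 (1.17, SE 0.10). In newborn neurons 15 were lower and 2 higher, with a median of -0.33, and in intermediate and mature neurons 4 and 2 were lower and 0 higher. Mitochondrial ribosomal proteins, which belong to a separate ribosome, were higher for 39 and lower for 2 of 78 in cycling progenitors, led by Mrpl51 (1.09, SE 0.09), and lower for 17, 19 and 7 in newborn, intermediate and mature neurons. Over all genes 26.9% were higher in cycling progenitors, and 13.9%, 9.40% and 12.3% were lower in newborn, intermediate and mature neurons. The cycling values come from gates at full depth, where cycling cells were deeper, and are not given here for thinned gates. In mature neurons the share of biogenesis genes and of mitochondrial ribosomal proteins that was lower was under the background of 12.3%. Differences between lists were not tested. Among regulators, Eif4ebp1, the mTOR target that restrains cap-dependent translation, was higher in cycling progenitors (2.20, SE 0.36, adjusted p 1.5e-05). Mycl was lower in newborn neurons (-1.21, SE 0.13, adjusted p 1.8e-10). Against newborn neurons it was lower in intermediate (-0.74) and in mature neurons (-1.68). Mycn also moved down, but it is a marker of the progenitor gate, so this is not a result.

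In a fit over 13 classes each class was tested against the mean of the others. All genes had medians between -0.19 and 0.04 per class. Blood leukocytes had 81 members higher and 0 lower, against 27.1% of 16089 genes higher, with a median of 1.10. Microglia had 80 higher (33.5% of genes, median 0.55), endothelial cells 80 higher and 1 lower (30.0%, median 0.57), cycling progenitors 76 higher (37.6%, median 0.41), fibroblasts 56 higher and 3 lower (31.5%) and border macrophages 50 higher and 2 lower (25.5%). At the low end astroglia had 82 lower (31.2% of genes, median -1.28), intermediate granule neurons 82 lower (28.5%, median -0.78) and myelinating oligodendrocytes 81 lower (35.2%, median -0.82). Newborn granule neurons and GABAergic interneurons each had 44 lower and 0 higher, against 27.0% of genes lower in both classes. Non-cycling progenitors had 16 higher and 4 lower (18.8% of genes higher). Oligodendrocyte precursors had 16 higher and 18 lower, against 32.4% and 26.4% of genes. The GABAergic class of P10 WT goes partly against its name: its 8 interneuron markers summed to 1014 CPM, against 2109 to 2194 CPM in the other libraries, and 6 newborn granule markers to 7823 CPM, against 4195 to 5341 CPM. The part of this in its value was not tested.

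The make-up of the ribosomal protein RNA, taken as the share of each member within all member UMIs, differed between classes for a minority of members. Most members varied little. Rpl30 had the smallest spread between classes, with an SD of 0.08 on the log2 scale, followed by Rps3a1, Rps13 and Rpl13a. Rps19bp1 (SD 0.71), Rpl7l1 (0.48), Rpl22l1 (0.47), Rps27l (0.46), Rps29 (0.46), Rplp1 (0.45), Rpl38 (0.44) and Rpl12 (0.36) had the largest. For Rps19bp1 and Rpl7l1 this came from levels that did not follow the others. In P10 cKO, P10 WT, P14 cKO and P14 WT, Rps19bp1 stood at 46.0, 48.5, 40.6 and 33.5 CPM among astroglia. Blood leukocytes, at the other end of the order by member share, had 42.5, 42.1, 31.7 and 26.2 CPM in those libraries, so its level was much alike where the other members differed most.

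Rpl38, a large-subunit protein whose loss disturbs axial patterning in mice, stood out in endothelial cells. It took 2.41% of member UMIs there in P10 cKO, 2.66% in P10 WT, 2.21% in P14 cKO and 1.38% in P14 WT. In microglia it took 0.695%, 0.778%, 0.641% and 0.411% in the same libraries, the lowest of the classes in each library. Endothelial cells were highest in each library, with 2802 CPM in P10 cKO, 4539 CPM in P10 WT, 2232 CPM in P14 cKO and 1470 CPM in P14 WT. Against the other classes Rpl38 was at 2.07 (SE 0.06, adjusted p 4.1e-32), where the median member in endothelial cells was at 0.57.

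Rps29, a zinc-finger protein of the small subunit, was raised in the macrophage classes. It made up 4.19% of member UMIs in border macrophages of P10 cKO, 4.32% in P10 WT, 3.75% in P14 cKO and 2.56% in P14 WT, and 2.68%, 2.84%, 2.45% and 1.59% in microglia. In oligodendrocyte precursors it made up 1.37%, 1.48%, 1.11% and 0.815%. Tested against the other classes it was at 1.69 (SE 0.06) in border macrophages and 1.29 (SE 0.07) in microglia. Microglia were also high in Rps12 and Rpl12 (both 1.27, SE 0.07), and blood leukocytes in Rpl12 (1.85, SE 0.07, adjusted p 1.0e-26).

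Rpl22l1 was highest in fibroblasts, with 485 CPM in P10 cKO, 653 CPM in P10 WT, 558 CPM in P14 cKO and 572 CPM in P14 WT (1.29 against the other classes, SE 0.08, adjusted p 3.1e-18). In fibroblasts it exceeded Rpl22 in P14 cKO (558 and 537 CPM) and in P14 WT (572 and 477 CPM) but not in P10 cKO (485 and 540 CPM) or P10 WT (653 and 768 CPM). In newborn granule neurons Rpl22l1 stood at 115, 246, 140 and 111 CPM, against 334, 771, 336 and 311 CPM for Rpl22. Rps27l was raised within member RNA in astroglia, both oligodendrocyte classes and cycling progenitors, and lowest in blood leukocytes, where Rps27 was among the most raised members (1.47, SE 0.07). Rplp1 was low throughout the neurons: it was at -0.95 (SE 0.09) in newborn and -1.50 (SE 0.10) in intermediate granule neurons and at -0.73 (SE 0.09) in GABAergic interneurons, and at 0.48 or more in oligodendrocyte precursors, fibroblasts, border macrophages and microglia.

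**Figure D3:**
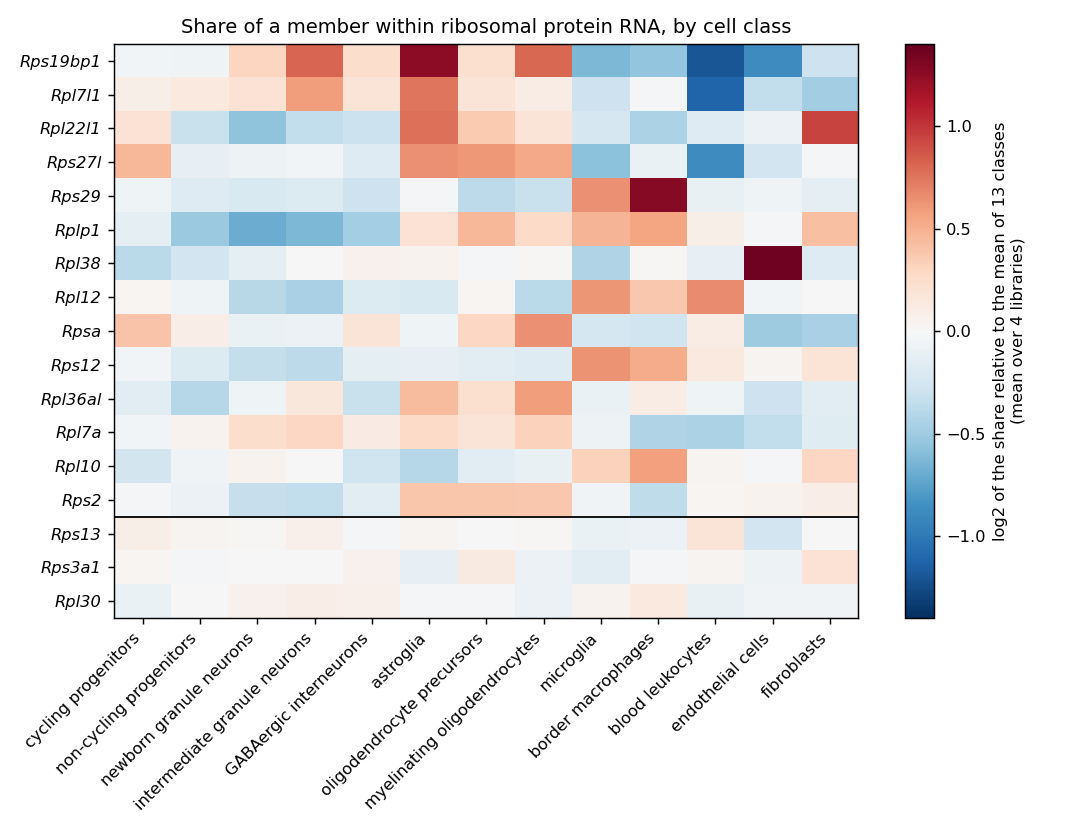
Log2 share of a member within all ribosomal protein UMIs relative to the mean of 13 classes (colour, mean over 4 libraries), for the 14 members that varied most between classes (above the line) and the 3 that varied least (below it). Single cells of the map stand out for Rpl38 in endothelial cells (1.36), Rps29 in border macrophages (1.28) and Rpl22l1 in fibroblasts (0.95).

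At P14 both genotypes were counted by the same version. The log2 ratio of the member share, P14 cKO over P14 WT, had a median over 14 classes of -0.02. It was above 0 in microglia (0.25, or 10.9% in P14 cKO and 9.21% in P14 WT), border macrophages (0.22, or 9.66% and 8.27%), oligodendrocyte precursors (0.09), astroglia and GABAergic interneurons (both 0.05) and newborn granule neurons (0.01). It was below 0 in the other 8, with the lowest values in intermediate granule neurons (-0.23, or 3.97% and 4.66%), blood leukocytes (-0.20, or 15.8% and 18.2%) and non-cycling progenitors (-0.18, or 8.48% and 9.62%). Over the members of more than 400 coding bases the sign turned in newborn granule neurons (-0.08), astroglia (-0.05) and GABAergic interneurons (-0.04). Counting intervals were narrow, such as 0.24 to 0.25 in microglia, and say nothing of the spread between animals.

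Coding length ordered the P14 ratios of members in every class. Across members, which are not independent replicates, Spearman's rho of coding length with the ratio lay between -0.89 and -0.72 at P14, while at P10 it lay between 0.08 and 0.52. Over all cells, the members of at most 300 coding bases had a median P14 ratio of 0.45 (10 of 11 above 0), those of 300 to 400 bases 0.09, those of 400 to 600 bases -0.15 and those over 600 bases -0.27 (0 of 23 above 0). P10 cKO over P14 cKO gave 0.25, 0.15, 0.15 and 0.18 for the same groups, and P10 cKO over P14 WT gave 0.70, 0.25, 0.01 and -0.09. A decline with length therefore appeared in both ratios that hold P14 WT and not in the ratio of the cKO libraries. Both ratios that hold P14 WT also set cKO over WT. P10 cKO over P10 WT gave -0.98, -0.93, -0.82 and -0.81, which rose with length. Genotype and a property of the P14 WT library cannot be told apart here, and the cause of the length order was not tested. Genes that are no members showed no such order by coding length, with median P14 ratios of 0.003 up to 300 bases (256 genes), -0.11 from 400 to 600 bases (943 genes) and -0.01 over 600 bases (10125 genes). By transcript length their median was 0.13 up to 550 bases and -0.11 from 550 to 1500 bases at P14. P10 cKO over P14 WT gave 0.21 and -0.15. A gap of the same sign also stood in P10 cKO over P14 cKO (0.07 and -0.03) and in P10 cKO over P10 WT (-0.15 and -0.51).

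**Figure D4:**
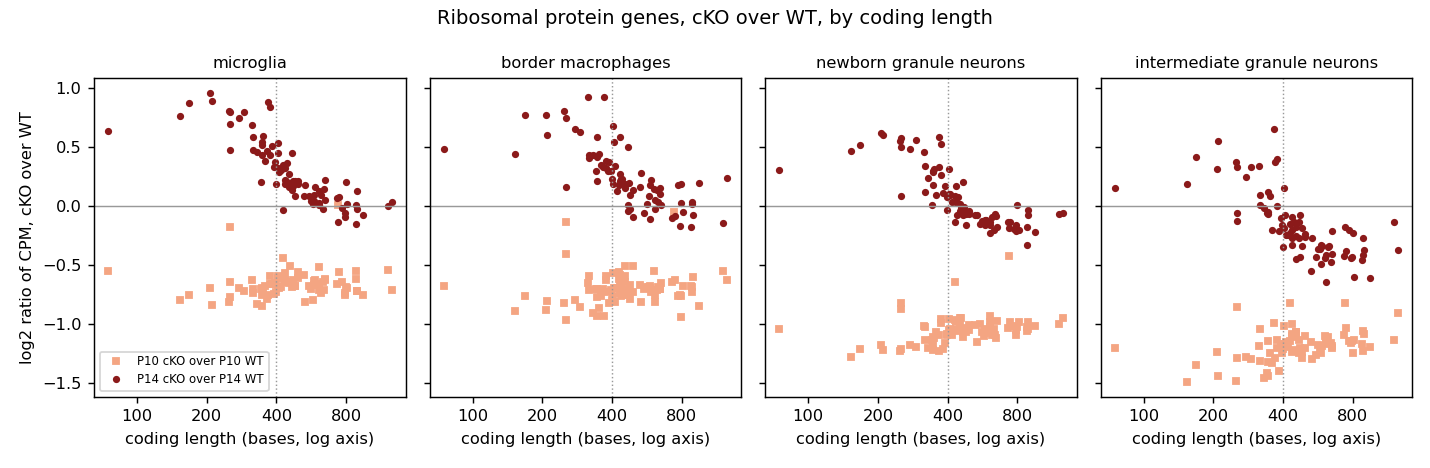
Log2 ratio of CPM, cKO over WT (y axis), of each ribosomal protein gene against its coding length in bases (x axis, log scale) in 4 classes; dark circles P14, light squares P10, dotted line at 400 bases. P14 ratios decline with length in all 4 panels, and P10 ratios lie below 0, save 1 member in microglia, with no such decline.

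Microglia had the largest P14 ratio. Of 83 members 33 were higher in P14 cKO by a log2 ratio of over 0.32, the size limit used here in place of a test, and 0 were lower by as much. Of 9530 genes 10.4% were higher by this limit. Rps28 had 927 CPM in P14 cKO and 477 CPM in P14 WT (log2 ratio 0.96), Rpl38 701 and 379 CPM (0.89) and Rpl35 626 and 339 CPM (0.89). Rpsa had 1362 CPM in P14 cKO and 1515 CPM in P14 WT (-0.15), and Rps4x was at -0.10. Of the 54 members with over 400 coding bases 45 were above 0 and 6 past the limit, and their summed share had a ratio of 0.13. Within 8000 to 16000 UMIs per cell the ratio over all members was 0.07; microglia of P14 cKO had a median of 17115 UMIs and those of P14 WT 9096. Cycling microglia (25 cells in P14 cKO, 50 in P14 WT) had a ratio of 0.17 and non-cycling ones 0.29.

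Border macrophages (96 cells in P14 cKO, 44 in P14 WT) had 27 of 80 members higher past the limit and 0 lower, against 22.7% of 2485 genes, with Rpl35 (528 and 277 CPM) and Rpl36 (807 and 425 CPM) at the top and Rps2 (944 and 1066 CPM), Rps4x and Rpl3 at the bottom. With thinned gates their ratio was 0.01, and over the longer members 0.11. Oligodendrocyte precursors had a ratio of 0.09 over all members and of 0.00 over the longer ones.

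Intermediate granule neurons had 29 of 83 members lower and 9 higher past the limit in P14 cKO, against 15.1% of 9885 genes lower. Among the lowest were Rplp0 with 586 CPM in P14 cKO and 893 CPM in P14 WT (-0.61) and Rpl7 with 495 and 752 CPM (-0.60). Of these 29, 28 had over 400 coding bases. Over the longer members the share ratio was -0.33, and it stayed below 0 in every setting tried. Blood leukocytes had 24 of 82 members lower (16.4% of 5177 genes), led by Rps2 with 1962 CPM in P14 cKO and 2968 CPM in P14 WT, and their ratio over the longer members was -0.31. Their make-up differed as well: myeloid markers summed to 23381 CPM in P14 cKO and 9179 CPM in P14 WT, and lymphoid markers to 2308 and 2954 CPM, and the part of this in the result was not tested. Non-cycling progenitors had 18 of 82 members lower (13.4% of 5372 genes), and their share ratio was -0.27 over the longer members and 0.11 with thinned gates.

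Rpl22l1 stood above 0 in P14 granule neurons of each stage. It had 140 CPM in P14 cKO and 111 CPM in P14 WT in newborn neurons (log2 ratio 0.34, interval 0.25 to 0.42), 153 and 97.8 CPM in intermediate neurons (0.65, 0.52 to 0.78) and 192 and 130 CPM in mature neurons (0.56, 0.20 to 0.95). With 366 coding bases it belongs to the 29 members of at most 400, whose median was 0.31 in newborn, 0.09 in intermediate and 0.25 in mature neurons. Its value in newborn neurons was thus near the median of the short members and below some of them, such as Rpl35 at 0.58 and Rpl31 at 0.53. In intermediate neurons it was the highest of all members with at least 200 UMIs. Rpl22, with 384 coding bases, was at 0.11, -0.21 and 0.25 in the same classes. Outside the granule neurons Rpl22l1 was at 0.46 in microglia beside 0.51 for Rpl22, at 0.10 in cycling progenitors and at -0.04 in fibroblasts. At P10 it had 115 CPM in P10 cKO and 246 CPM in P10 WT in newborn neurons and 87.8 and 174 CPM in intermediate neurons.

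**Figure D5:**
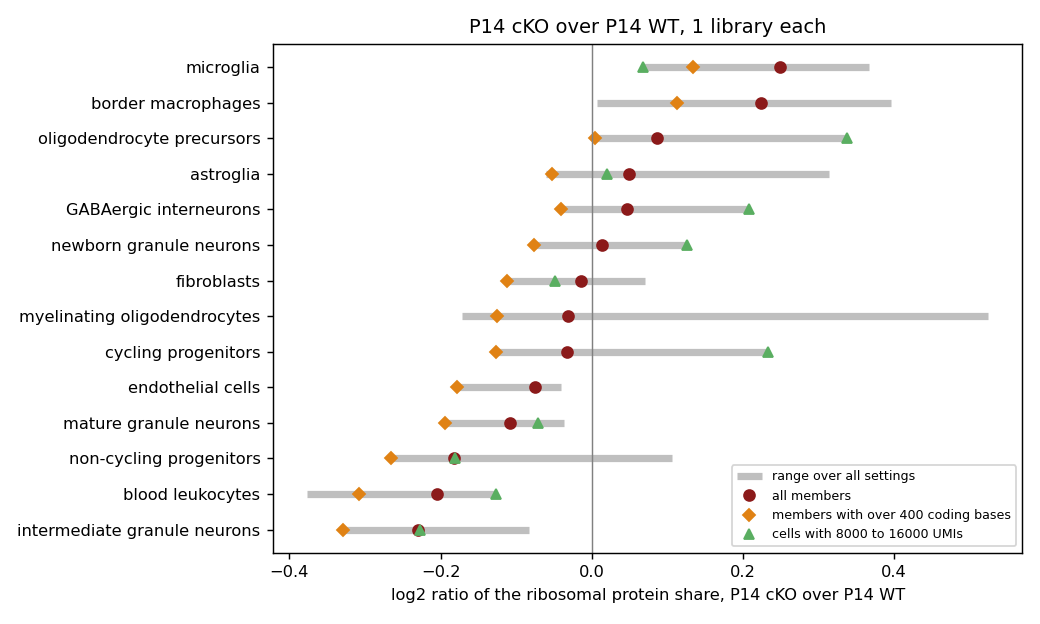
Log2 ratio of the ribosomal protein share, P14 cKO over P14 WT (x axis, 1 library each), in 14 classes (y axis): circles all members, diamonds the members with over 400 coding bases, triangles cells of 8000 to 16000 UMIs where enough remained, grey bars the range over all settings. Microglia (0.25) and border macrophages (0.22) are at the top and intermediate granule neurons (-0.23) at the bottom, and the diamonds lie left of the circles in every class.

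At P10 the share was lower in P10 cKO than in P10 WT in all 13 classes, with log2 ratios from -1.20 in intermediate granule neurons to -0.40 in blood leukocytes and a median of -0.75. When members were divided by the UMIs of genes with at most 5000 bases of intron instead of all UMIs, the median was -0.21 and the range -0.59 to 0.08. The P10 and P14 ratios thus had opposite signs in 6 classes, and no direction for the genotype is read from P10. Between the cKO libraries the versions were 7.0.1 and 7.1.0. Shares were close in some classes, such as cycling progenitors (10.1% at P10 and 10.1% at P14) and newborn granule neurons (6.31% and 6.08%). They were lower at P14 in endothelial cells (11.6% and 10.1%), GABAergic interneurons (7.74% and 6.84%) and intermediate granule neurons (4.50% and 3.97%). In mature granule neurons the share of all UMIs was higher at P14 (2.81% and 3.52%). Member UMIs per UMI of genes with at most 5000 bases of intron were instead lower at P14 (0.209 and 0.196). Mature cells had median depths of 3849 UMIs in P10 cKO and 10927.5 in P14 cKO, and the part of depth in this was not tested.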

How the data were processed

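Droplet-based single-cell RNA sequencing of dissociated mouse cerebellum was analysed for 4 libraries, 1 per age and genotype. The authors deposited raw UMI counts per gene and barcode. Per the file headers, Cell Ranger wrote the matrix in version 7.0.1 for P10 cKO, 5.0.0 for P10 WT, and 7.1.0 for P14 cKO and P14 WT. Seurat 4.1.3, mm10 and an older Cell Ranger (3.0.2) appear in the submitters' processing notes, and whether intronic reads were counted is not given in the sources used here.

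Barcodes with under 500 genes or over 20% mitochondrial UMIs were left out. Doublets were not removed in the reported values, but Scrublet was an alternative, and cells that met more than 1 gate were left out. Classes were gated on marker genes. A cell joined a non-granule class when it had enough markers of exactly 1 class. Granule progenitors needed Atoh1 and 3 of 8 markers, newborn neurons Nhlh1 and Cntn2, intermediate neurons Grin2b and Neurod1, and mature neurons 3 of 10 markers. The neuron classes also needed Atoh1 undetected and at most 3 S-G2-M genes, and intermediate and mature neurons needed Nhlh1 undetected. Gate thresholds were set after cell counts were seen. UMI counts were summed per class and library and tested with edgeR 4.0.16 (quasi-likelihood, TMM factors, filterByExpr with a minimum count of 10, library as block) in R 4.3.3, with Benjamini-Hochberg adjustment over all genes tested. DESeq2 1.42.0 was an alternative. The tests were tried on simulated data with 2-fold and 4-fold changes, which are larger than the member medians. Of the 2-fold changes edgeR recovered from 63% (mature against newborn neurons) to 94% (intermediate against newborn neurons). There were 2 and 12 false calls in these comparisons. Changes smaller than 2-fold were not part of this trial. The member share is the percentage of a class's UMIs that came from members. Ratios of single genes between genotypes used genes with at least 100 UMIs in the cKO and WT sums together. To each UMI count 0.5 was added, and a log2 ratio of 0.32 was the size limit.

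Mature granule neurons had 7 cells in P10 WT, so their comparison used 3 libraries, which departs from the planned 4. The members and lists were chosen with earlier results of these data known. Named genes were the highest and lowest by level, by comparison and by class, the most variable members, and the paralogs with their parents. Only some of the genes this rule gave are named, and some items are not reported here. Coding lengths and introns came from GENCODE, and promoters from RefSeq. With the library as a block, p-values measure how much class differences varied between the libraries of a fit, which were 4, or 3 where stated.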

Additional observations from a re-analysis of the deposited data

Results flagged for a closer look

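In 6 classes the member share moved in opposite directions at P14 and at P10, each on 1 library per genotype, and the difference between ages was not tested. The log2 ratio of cKO over WT was 0.013 at P14 and -1.06 at P10 in newborn granule neurons, 0.047 and -0.91 in GABAergic interneurons, 0.049 and -1.12 in astroglia, 0.086 and -0.77 in oligodendrocyte precursors, 0.249 and -0.67 in microglia, and 0.224 and -0.72 in border macrophages. At P10 the genotype and the counting version cannot be told apart.

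The member share of cycling over non-cycling progenitors had a log2 ratio of -0.180 in P10 WT, opposite in sign to the other 3 libraries. This difference was not tested.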

How the results depend on the processing

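No paired analysis was possible because the labels give no replicate numbers and each genotype and age has 1 library, which concerns the genotype comparisons. The tests between cell classes had the library as a block throughout. Members higher in cycling progenitors numbered 30, and 18 with DESeq2, 17 without TMM factors, 57 without the count filter, 0 with thinned gates, 13 within the depth window, and 16 to 47 when 1 library was left out. Members lower there numbered 1, and 0 with DESeq2, without the filter and within the depth window, 27 with thinned gates, and 0 to 1 with 1 library left out. Members lower in cycling oligodendrocyte precursors numbered 13, and 22 without the filter, 35 with thinned gates, 23 after Scrublet, 0 within the depth window and 4 to 11 with 1 library left out. Members lower in intermediate neurons numbered 80, and 8 within the depth window, where 77 had an unadjusted p under 0.05, and 78 to 80 with 1 library left out. With 1 library left out, newborn neurons gave 80 to 81 and mature neurons 72 to 79. Over 13 classes 455 calls were higher and 361 lower, against 277 and 143 within the depth window, which kept 8 classes. With 1 library left out there were 424 to 459 and 313 to 381. The shares of all genes are given above by class, in at least 1 direction.

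The median P10 log2 ratio of the share was -0.746, and -0.729 with median-ratio scaling, -0.669 with thinned gates, -0.754 at 10% mitochondrial UMIs, -0.671 as a mean over cells, -0.205 over short-intron UMIs, -0.772 within the depth window and -0.728 over the longer members. The P14 median was -0.023, and -0.012 with median-ratio scaling, 0.0068 with thinned gates, 0.055 as a mean over cells, -0.038 after Scrublet, -0.037 over short-intron UMIs, 0.020 within the depth window and -0.119 over the longer members. Members higher past the size limit at P14 numbered 210 over all classes and 21 among the longer members. Of all genes, between 8.14% (cycling progenitors) and 22.7% (border macrophages) were higher past this limit in a class. Single classes changed sign: P10 blood leukocytes over short-intron UMIs (0.083), and at P14 cycling progenitors within the depth window (0.233), non-cycling progenitors with thinned gates (0.106), newborn neurons (-0.077) and GABAergic interneurons (-0.041) over the longer members, astroglia over short-intron UMIs (-0.061) and the longer members (-0.052), myelinating oligodendrocytes as a mean over cells (0.525), and fibroblasts with median-ratio scaling (0.051) and as a mean over cells (0.071). Thinned gates, the depth window and the leave-one-out fits use fewer cells or libraries, and the cause of the other changes was not tested.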
